A study of Mus musculus with 2 samples.

Results

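The T cell receptor alpha chain is assembled from a variable (V), a joining (J) and a constant segment, and the mouse V segments carry the symbols Trav followed by a family number. All 128 features with such a symbol were taken, of 32285 features in the deposited tables, without regard to their values. They were counted in YFP+ cells sorted from mouse thymus, in a control library (Tbx21Cre Rosa26-YFP+) and a conditional knockout library (cKO; Tbx21Cre Ets1F/F Rosa26-YFP+). Both carry a Cre recombinase under the control of Tbx21 (which encodes T-bet) and a YFP reporter that marks cells in which Cre has acted. The cKO mice also carry floxed alleles of the transcription factor gene Ets1, so Ets1 is targeted only in cells that have expressed Cre. The sources used here give neither age nor strain background. Each genotype had a single library (1 pool of 2 mice whose cells cannot be told apart), so no test was made. Every interval below is an exact 95% interval that covers counting error only.

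Alpha chain rearrangement takes place in CD4+CD8+ double positive (DP) thymocytes, which express the recombinase gene Rag1. Most alpha-beta T cells then carry 1 of many possible V segments. Invariant natural killer T (iNKT) cells instead carry an alpha chain that joins Trav11 to Traj18, paired with a few beta segments. Segments with "dv" in the symbol can be joined to either the alpha or the delta chain. The V segment lies at the 5' end of the transcript and these libraries read the 3' end, so a V segment is seen in only a part of the cells that use it.

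The whole group lay on chromosome 14 of GRCm38, from Trav1 at 52427928 to the end of Trav23 at 53977678, upstream of the constant gene Trac (chr14:54220521-54224206). GENCODE vM21 annotates 108 of the 128 as V genes and 20 as V pseudogenes. The locus holds near-copies of the same segments, marked d and n in the symbol, and reads can be assigned only where copies differ. The V exons of the segments on which the results turn are shown with their nearest copies, all on the plus strand, from the GENCODE vM21 transcripts. Capitals mark the bases at which the copy differs from the segment above it. Trav11 occupies chr14:53519569-53519859 and Trav11n chr14:53135388-53135678. Trav4-4-dv10 occupies chr14:53683899-53684177 and Trav4d-4 chr14:52991111-52991389. The joining segment Traj18 occupies chr14:54200777-54200842.
Trav11: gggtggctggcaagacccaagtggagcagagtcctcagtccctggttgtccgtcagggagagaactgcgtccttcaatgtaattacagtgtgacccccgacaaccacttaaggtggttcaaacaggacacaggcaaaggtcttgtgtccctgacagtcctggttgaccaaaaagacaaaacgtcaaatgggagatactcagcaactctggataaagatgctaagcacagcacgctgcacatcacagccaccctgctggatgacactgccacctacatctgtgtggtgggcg
Trav11n: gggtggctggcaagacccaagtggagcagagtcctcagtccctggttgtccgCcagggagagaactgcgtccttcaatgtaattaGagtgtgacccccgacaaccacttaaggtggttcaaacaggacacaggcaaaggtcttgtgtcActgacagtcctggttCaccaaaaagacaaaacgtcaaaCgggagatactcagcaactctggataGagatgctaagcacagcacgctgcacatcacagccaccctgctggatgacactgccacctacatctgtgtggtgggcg
Trav4-4-dv10: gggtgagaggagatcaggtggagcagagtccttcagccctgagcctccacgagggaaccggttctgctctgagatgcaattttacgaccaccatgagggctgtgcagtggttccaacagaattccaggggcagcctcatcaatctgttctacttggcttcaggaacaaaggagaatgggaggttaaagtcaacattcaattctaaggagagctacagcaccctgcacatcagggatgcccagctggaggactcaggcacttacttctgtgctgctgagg
Trav4d-4: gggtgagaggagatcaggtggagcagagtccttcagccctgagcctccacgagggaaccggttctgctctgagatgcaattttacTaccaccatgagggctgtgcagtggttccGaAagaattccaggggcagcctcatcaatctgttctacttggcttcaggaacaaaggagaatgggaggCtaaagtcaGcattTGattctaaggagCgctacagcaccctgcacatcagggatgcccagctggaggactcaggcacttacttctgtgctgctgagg
Traj18: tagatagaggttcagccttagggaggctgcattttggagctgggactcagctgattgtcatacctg

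Trav11n differed from Trav11 at 6 of 291 bases. A closer copy, Trav11d, is not shown because its V exon was identical to that of Trav11 over 290 bases, and its annotated transcript matched from the first base to its end. The tables nevertheless listed 382 unique molecular identifiers (UMIs, each counting 1 captured RNA molecule) for Trav11, 4 for Trav11d and 11 for Trav11n. Trav11 and Trav11d counts are therefore uncertain against each other, and the sources used here do not say how the upstream software divided them. Trav4-4-dv10 differed from Trav4d-4 at 8 of 279 bases, and Trav4n-4 had the same V exon as Trav4d-4. Both copies had 0 UMIs, against 197 for Trav4-4-dv10. Of the 128 segments, 39 shared every stretch of 60 bases with another segment. Apart from Trav11, these 39 held 5 UMIs in all. The 60 segments with more than 50% unique stretches held 1386 of the 2157 Trav UMIs, and 52 of them had at least 1 UMI. Which segments were seen thus went with how much unique sequence they have, and a segment at 0 among the near-identical copies cannot be read as unused.

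In the cells kept after filtering (at least 500 genes and at most 10% mitochondrial UMIs), 80 of the 128 segments were detected, 76 in control and 73 in cKO cells. There were 968 Trav UMIs in 7395 control cells and 1189 in 5903 cKO cells. Median depth was 2666 UMIs per control cell and 5533 per cKO cell. The 2 libraries shared 29 barcodes, 14 of them among the kept cells. Cells without a Rag1 UMI that held a UMI of Cd3d, Cd3e or Cd3g were divided into Cd8b1+ (829 control and 527 cKO cells), Cd4+ (667 and 340) and other CD3+ cells with neither (5550 and 2634). Cells with a Rag1 UMI were taken as DP cells (58 and 57). The iNKT marker list (Zbtb16, Tbx21, Klrb1c, Il2rb, Slamf6, Izumo1r and Trav11) had all 7 members detected in the other CD3+ cells of both libraries. The same held in Cd8b1+ and Cd4+ cells, so the list does not set the other CD3+ cells apart. At least 1 member was found in 81.0% of control and 93.1% of cKO other CD3+ cells, and in 93.9% and 95% of Cd4+ cells. The DP label held better in cKO, where 84.2% of these cells had a Cd4 UMI and 94.7% a Dntt UMI, than in control, with 32.8% and 50%. Ets1 was lower in the cKO library in the other CD3+ cells, at 519 and 156 CPM (UMIs of a gene per 1000000 UMIs of its class), and was 2.47-fold lower in Cd8b1+ and 2.24-fold lower in Cd4+ cells. DP cells did not show this, with Ets1 levels of 489 CPM (control) and 658 CPM (cKO), a ratio of 1.34 (1.04 to 1.75). The cKO library also held gut epithelium markers. A UMI of 1 of 6 such genes was found in 28.4% of cKO other CD3+ cells against 2.41% in control, and in 32.1% against 3.14% of Cd8b1+ cells.

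Any Trav UMI was found in a larger share of cKO cells in each class, but not all of this remained at equal depth. Among Cd8b1+ cells, 108 of 829 control cells (13.0%, interval 10.8 to 15.5) and 181 of 527 cKO cells (34.3%, 30.3 to 38.6) held at least 1. For equal depth, cells were thinned to 1500 UMIs and shallower cells were left out, 156 control and 6 cKO cells of this class. The shares were then 4.46% and 9.60%, with intervals of 3.03 to 6.30 and 7.21 to 12.5. Cd4+ cells were alike, with 13.0% and 30.3% before thinning and 4.29% and 9.85% after it. Among other CD3+ cells the shares were 8.25% and 15.0%, yet after thinning they were 3.82% and 3.83%. That step left out 1836 of the 5550 control and 104 of the 2634 cKO other CD3+ cells. The median depth of these other CD3+ cells was 2298 UMIs in control and 6726.5 in cKO. The summed Trav level of Cd8b1+ cells was 32.9 CPM in control cells and 72.7 CPM in the cKO, 2.21-fold higher (1.83 to 2.68). That of other CD3+ cells was 27.2 and 29.9 CPM, a ratio of 1.10 (0.977 to 1.23). DP cells were few, with a Trav UMI in 7 of 58 control and 18 of 57 cKO cells.

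Cells without a CD3 UMI were taken as the background. Among cells with a UMI of the B cell gene Cd79a and none of CD3, 1 of 55 control cells (median depth 2133 UMIs) and 0 of 311 cKO cells (2941 UMIs) held a Trav UMI. A count of 0 there leaves room for up to 0.965%. Of 1790 cKO cells with at least 5 gut epithelium UMIs and no CD3 UMI (median depth 1364 UMIs), 0 held one, giving an upper limit of 0.168%. Over all cells with neither a CD3 nor a Rag1 UMI the share was 3.59% in control and 0.217% in cKO. Their median depths were 1773 and 1467 UMIs. The constant gene Trac was found in 26.3% of these control cells and in 2.39% of these cKO cells. The control share is therefore not that of cells free of receptor RNA, and the libraries are not alike in this set. Of the 9 control cells with a Trav UMI here, 6 held Trav22. Each cKO class stood above this background, though at greater median depths of 3388 to 9028 UMIs. After thinning, 1 of 1121 cKO cells with neither (0.0892%) held a Trav UMI, against 3.83% of cKO other CD3+ cells, the lowest of the classes. In control, 3 of 137 thinned cells with neither held one (2.19%, 0.454 to 6.27), against 3.82% of other CD3+ cells (3.23 to 4.49). These control intervals overlap, so control other CD3+ cells are not shown to stand above that set. The few control Cd79a+ cells left a wide interval, 0.0460 to 9.72, which includes the 8.25% of other CD3+ cells.

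**Figure D1:**
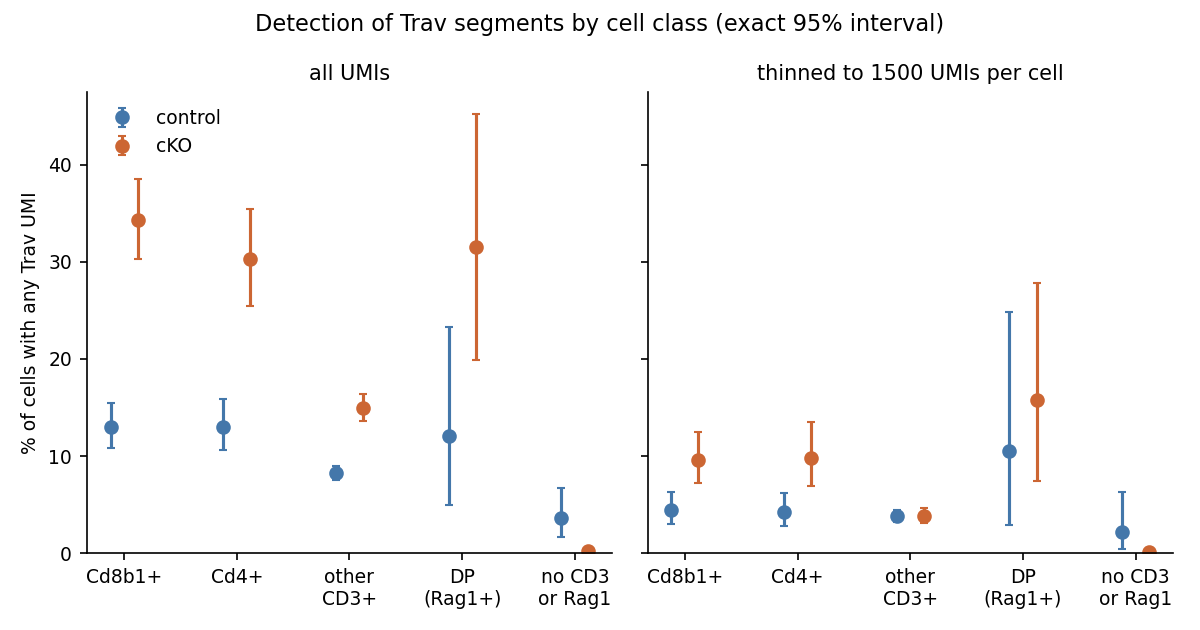
Share of cells with any Trav UMI by class, from all UMIs (left) and after thinning to 1500 UMIs with shallower cells left out (right), control and cKO, with exact 95% intervals. In other CD3+ cells the gap between 8.25% and 15.0% was not seen after thinning (3.82% and 3.83%), while Cd8b1+ and Cd4+ cells kept one.

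Trav11, the iNKT segment, led the other CD3+ cells in both libraries. It was found in 143 of the 458 control cells with any Trav UMI (31.2%, 27.0 to 35.7) and in 135 of the 394 cKO cells (34.3%, 29.6 to 39.2). By UMIs it made up 166 of 604 (27.5%) in control and 162 of 570 (28.4%) in cKO. Its level in control was 7.49 CPM and its cKO level 8.50 CPM, a ratio of 1.13 (0.908 to 1.42), and the interval includes 1. No other segment came near it. The next were Trav16n at 6.99% of control cells with a Trav UMI and Trav6-7-dv9 at 7.11% in cKO. Trav11d, its identical copy, was found in 2 cells of each library.

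The partners of Trav11 in the same cells could be read in few of them. Traj18, its joining segment in iNKT cells, made up 177 of 185 UMIs of all joining segments in control cells and 123 of 138 in cKO cells. It was found in 11 of 143 control other CD3+ cells with Trav11 (7.69%, 3.90 to 13.3) and 14 of 135 cKO cells (10.4%, 5.79 to 16.8). Cells with another V segment only had Traj18 in 12 of 308 control (3.90%) and 11 of 251 cKO cells (4.38%). The intervals overlapped in each library, and the Trav11 cells were not the only ones with this joining segment. Beta segments known from iNKT cells (Trbv13-1, Trbv13-2, Trbv13-3, Trbv29 and Trbv1) were found in 18 of 25 control Trav11 cells with any Trbv UMI (72.0%, 50.6 to 87.9) and in 22 of 24 such cKO cells (91.7%, 73.0 to 99). Among cells with another V segment only, they were found in 21 of 36 control (58.3%) and 24 of 44 cKO cells (54.5%, 38.8 to 69.6). Cells without any Trav UMI had them in 333 of 482 cells in control (69.1%, 64.7 to 73.2) and in 247 of 334 in cKO (74.0%, 68.9 to 78.6), and both intervals overlap those of the Trav11 cells. Trbv13-2 alone was seen in 11 of these 25 Trav11 cells in control (44%) and in 14 of 24 in cKO (58.3%).

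Cells with Trav11 and cells with another segment only were compared in 2 genes of the iNKT list, Klrb1c and Zbtb16. In each gene both kinds of cell differed between libraries in the same direction. The rest of the list is not given for these cells. Klrb1c, which encodes the NK1.1 receptor, was found in 83 of 143 control Trav11 cells (58.0%) and in 12 of 135 cKO Trav11 cells (8.89%). For cells with another segment only, the shares were 50% and 16.3%. Zbtb16, the gene of the transcription factor PLZF, was in 21.7% of control and 25.9% of cKO Trav11 cells, and in 19.2% and 29.5% of the cells with another segment only. The small ion transport regulator gene Fxyd7, which is not on the iNKT list, had 0 UMIs in 143 control Trav11 cells, an upper limit of 2.1% of such cells. It was found in 75 of 135 cKO Trav11 cells (55.6%). Its share of cells with another segment only is not given here, so this gap is not shown to be particular to Trav11 cells. Median depths of the Trav11 cells were 6607 UMIs in control and 6618 in cKO. Those of cells with another segment only were 6175 and 7383.

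**Figure D2:**
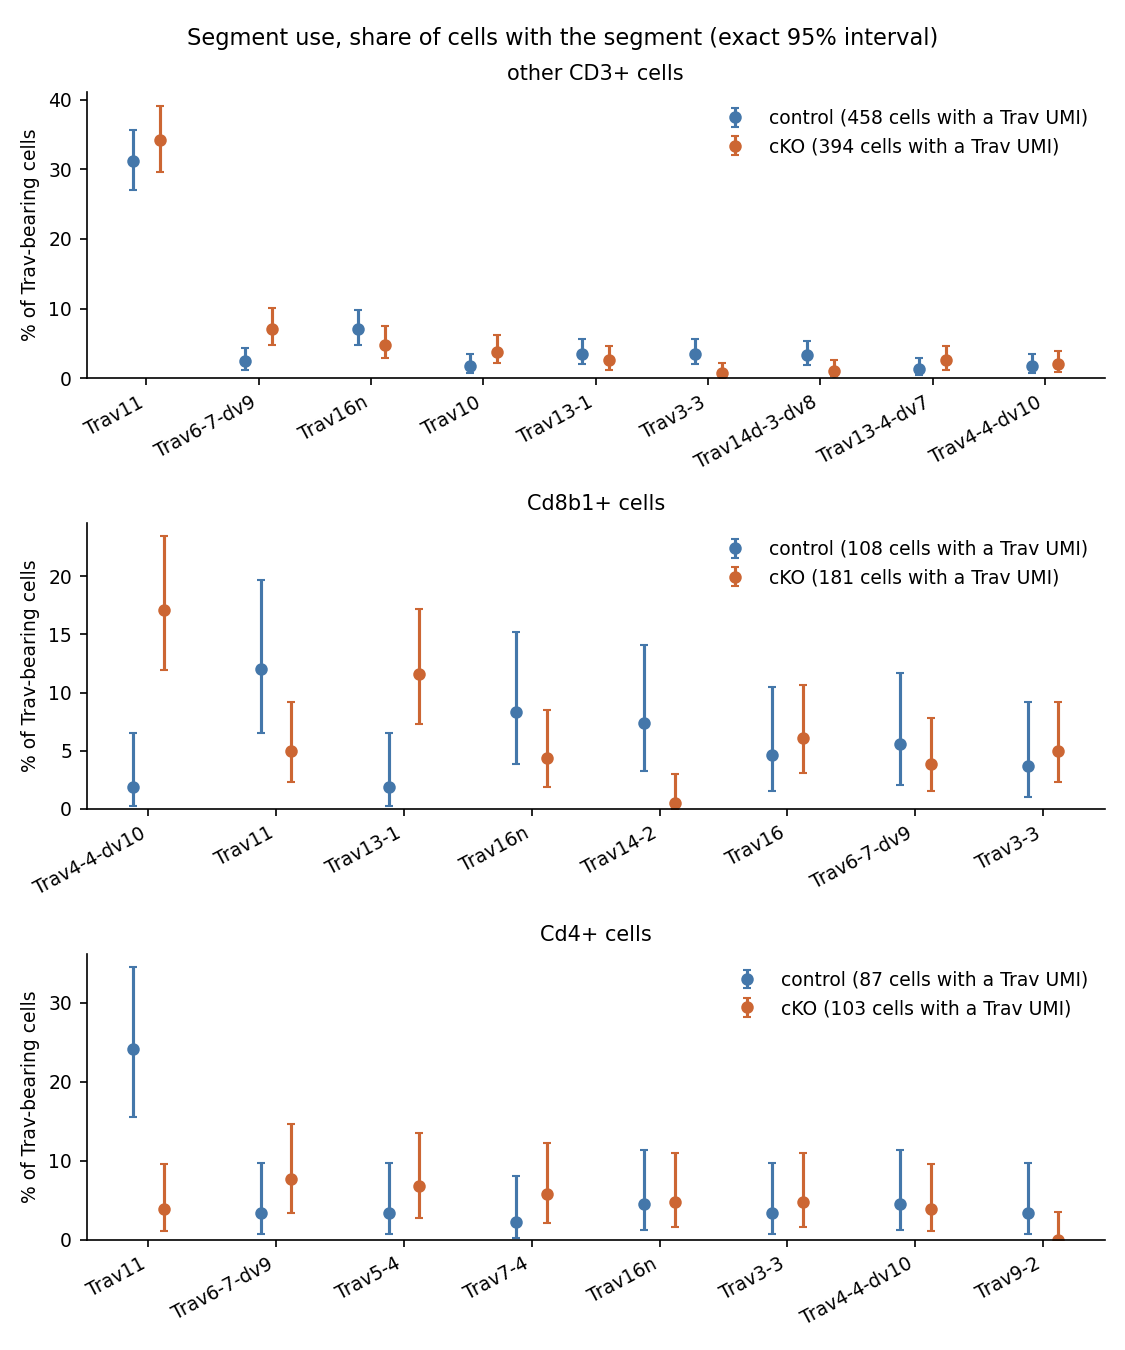
Share of Trav-bearing cells that held each segment in 3 classes, control and cKO, with exact 95% intervals; segments are the leading ones of each class with Trav11 and Trav4-4-dv10. Trav11 stands apart in other CD3+ cells of both libraries (31.2% and 34.3%), Trav4-4-dv10 in cKO Cd8b1+ cells (17.1%), and Trav11 in control but not cKO Cd4+ cells (24.1% and 3.88%).

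In Cd4+ cells Trav11 was less frequent in cKO. It was found in 21 of 87 control cells with a Trav UMI (24.1%, 15.6 to 34.5) and in 4 of 103 cKO cells (3.88%, 1.07 to 9.65). The control level was 5.12 CPM and the cKO level 1.76 CPM, 2.69-fold lower (1.08 to 9.76). The other members of the iNKT list did not all go the same way. From control to cKO Cd4+ cells, Klrb1c went from 45.4% to 2.35% of cells, Zbtb16 from 24% to 15.3% and Izumo1r from 56.7% to 41.5%. Tbx21 went from 37.8% to 32.9% and Il2rb from 80.8% to 72.6%, while Slamf6 rose from 18.1% to 60.9%. The part of these genes in the Trav11 difference was not tested. The effective number of segments, the number of equally used segments that would give the same evenness, was 15.4 in control and 33.0 in cKO Cd4+ cells. Use was thus more even in cKO, and no segment passed 7.77% of its Trav-bearing cells (Trav6-7-dv9, 8 of 103). The size rule asked for a CPM ratio of at least 1.5 either way, an interval without 1 and at least 20 UMIs over both libraries. Of the 4 segments with enough UMIs in Cd4+ cells, 1 was higher and 2 were lower in cKO, while 19.7% of all 9987 genes tested in this class passed, 12.8% higher and 6.9% lower. Besides Trav11, the lower one was Trav13n-3, with 21 and 2 UMIs, and the higher one was Trav16n, with 6 and 15 UMIs. Single cells carried these last differences. A control cell held 20 of the 21 Trav13n-3 UMIs and a cKO cell 11 of the 15 Trav16n UMIs. Without the cell with the most Trav UMIs in each library, the log2 ratio was 1.40 for Trav13n-3, opposite in sign to the -2.44 with it. For Trav16n it was 0.14, against 1.92 with that cell. The lower call of Trav11 also depended on the setting. Counted by cells in place of UMIs, Trav11 was the only segment with enough cells and it did not pass. Its log2 ratio was -1.43, and the interval included 0 with at most 5% mitochondrial UMIs (-1.15), without the 5% of cells with the most UMIs (-1.22), without cells with other-lineage markers (-0.71) and after thinning (-2.12).

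Trav4-4-dv10 stood out in the cKO Cd8b1+ cells, both in cells and in UMIs. It was found in 2 of 108 control cells with a Trav UMI (1.85%, 0.225 to 6.53) and in 31 of 181 cKO cells (17.1%, 11.9 to 23.4). It made up 5 of 159 Trav UMIs in control (3.14%) and 136 of 386 in cKO (35.2%, 30.5 to 40.2). The control level was 1.03 CPM and the cKO level 25.6 CPM, a ratio of 22.6 (10.4 to 77.5). Outside this class it was found in 4 control and 4 cKO Cd4+ cells and in 8 control and 8 cKO other CD3+ cells. Of the 5 segments with enough UMIs in Cd8b1+ cells, Trav4-4-dv10 and Trav13-1 passed the size rule, both higher in cKO, and 0 were lower. The same rule called 31.3% of all 10433 genes tested in this class, 23.4% higher and 7.84% lower. Trav13-1 had 7 UMIs in 2 control cells and 32 UMIs in 21 cKO cells, 1.45 and 6.03 CPM, a ratio of 3.95 (1.80 to 11.2). A single control cell held 6 of the 7. Scaled to Trav UMIs in place of all UMIs, 1 segment was higher and 1 lower in cKO in this class, and 0 and 3 in Cd4+ cells. The higher one was Trav4-4-dv10, and the lower one Trav11, with 14 of 159 (8.81%) and 10 of 386 UMIs (2.59%). Trav13-1, with 7 of 159 and 32 of 386 UMIs (8.29%), no longer passed, nor did Trav16n in Cd4+ cells. No share over all genes was made on this scale.

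The share of UMIs exceeded the share of cells because the bearing cells held several UMIs each. The 31 cKO Cd8b1+ cells with Trav4-4-dv10 held between 1 and 12 UMIs of it, 4.39 on average, and 25 of them held at least 2. The 3 cells with the most held 34 of the 136 UMIs (25.0%). By contrast, 114 of the 135 cKO other CD3+ cells with Trav11 held a single UMI of it, and the mean was 1.20. Among 22 segments found in at least 20 cells, UMIs per bearing cell ranged from 1.10 (Trav3-3) to 3.40 (Trav4-4-dv10), with a median of 1.31. The signal in Trav4-4-dv10 thus came from many cells, with no single cell holding most of it. All 31 of the 31 cells held a UMI of Cd8a, the gene of the other CD8 chain, and 30 held a UMI of the granzyme gene Gzmk. Cd8a was also found in 86.0% of all cKO Cd8b1+ cells and in 98.7% of those with at least 2 Cd8b1 UMIs. The Gzmk share of the other cKO Cd8b1+ cells is not given here, so neither gene is shown to be particular to the 31 cells.

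**Figure D3:**
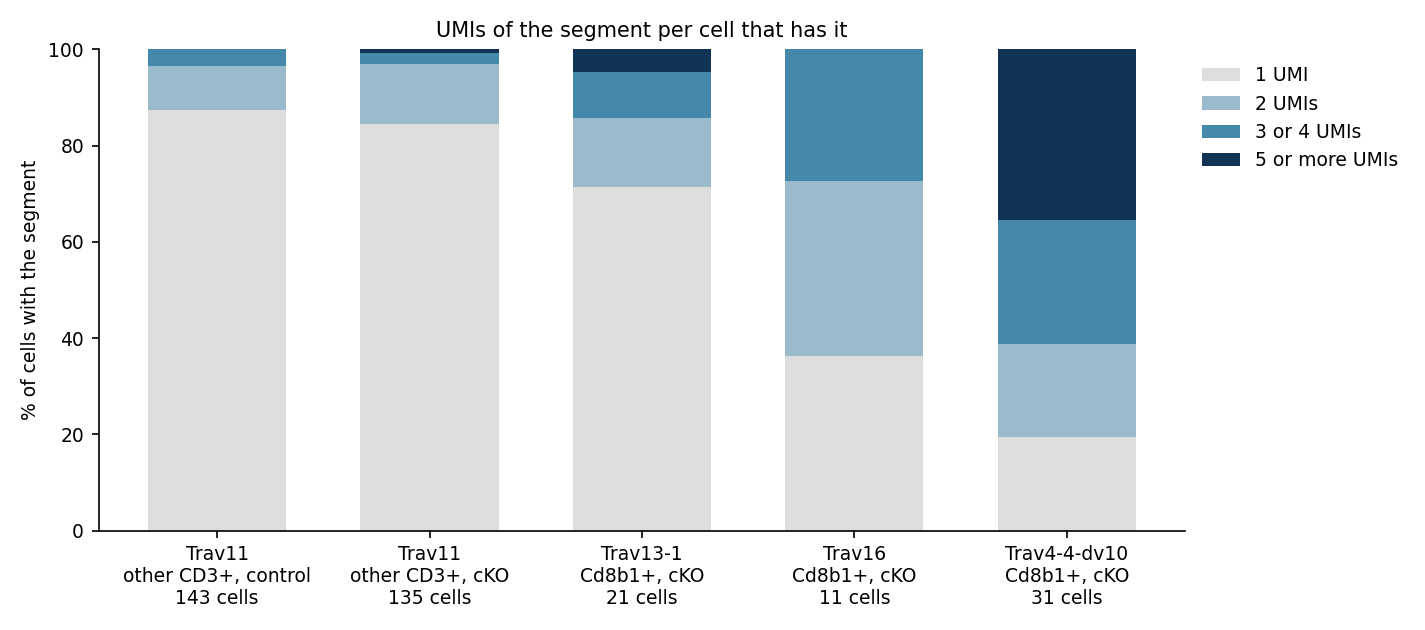
Share of cells with 1, 2, 3 or 4, and 5 or more UMIs of the segment among the cells that held it, for Trav11 in other CD3+ cells of both libraries and for Trav13-1, Trav16 and Trav4-4-dv10 in cKO Cd8b1+ cells. Most Trav11 cells held 1 UMI (125 of 143 and 114 of 135), while 25 of 31 Trav4-4-dv10 cells held at least 2.

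The Trav4-4-dv10 cells also shared a beta segment more often than the rest of their class. Of the 10 cKO Cd8b1+ cells with Trav4-4-dv10 in which any Trbv UMI was seen, 6 held Trbv20 (60%, 26.2 to 87.8). Of 140 other cKO Cd8b1+ cells with a Trbv UMI, 6 held Trbv20 (4.29%, 1.59 to 9.09), and of 96 control ones 3 did (3.13%). A second alpha segment, Trav16, was found in 5 of the 31 cells (16.1%, 5.45 to 33.7) and in 6 of the 150 other cKO Cd8b1+ cells with a Trav UMI (4%, 1.48 to 8.50). No cell held both Trbv20 and Trav16. Trav16 with Trav4-4-dv10 was the most frequent pair of segments among all cKO cells with several. In markers, Zbtb16 was found in 5 of the 31 cells (16.1%, 5.45 to 33.7). It was found in 4 of 142 cKO Cd8b1+ cells with another segment only (2.82%, 0.773 to 7.06), a set that leaves out cells with Trav11. Over all 527 cKO Cd8b1+ cells it was found in 37 (7.02%), which lies within the interval of the 31 cells. Slamf6, the gene of a surface receptor of T and NK cells, went the other way, at 3 of 31 cells (9.68%) against 56 of 142 (39.4%). How the 31 cells were divided between the 2 mice is not known. These comparisons were chosen after the values were seen.

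Cells with few Cd8b1 UMIs carried another set of segments than those with several. Among control Cd8b1+ cells with a single Cd8b1 UMI, 9 of 26 Trav-bearing cells held Trav11 (34.6%, 17.2 to 55.7), against 4 of 82 with at least 2 Cd8b1 UMIs (4.88%, 1.34 to 12). In cKO the counts were 6 of 13 (46.2%, 19.2 to 74.9) and 3 of 168 (1.79%, 0.370 to 5.13). A Cd8a UMI was found in 24.8% of control and 6.85% of cKO cells with a single Cd8b1 UMI, and in 77.3% and 98.7% of those with at least 2. Median depth differed as well, at 2008 UMIs with a single Cd8b1 UMI and 7246 with at least 2 in control. In cKO these depths were 8274 and 9132 UMIs. The part of depth in the control Cd8a difference was not tested. With the stricter limit, Trav4-4-dv10 was found in 1 of 82 control (1.22%) and 30 of 168 cKO cells (17.9%, 12.4 to 24.5). Trav13-1 was found in 2 of 82 (2.44%) and 21 of 168 cells (12.5%, 7.91 to 18.5). The Trav11 cells in the Cd8b1+ class were thus mostly those with the weakest evidence of Cd8b1, and the Trav4-4-dv10 cells were not.

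**Figure D4:**
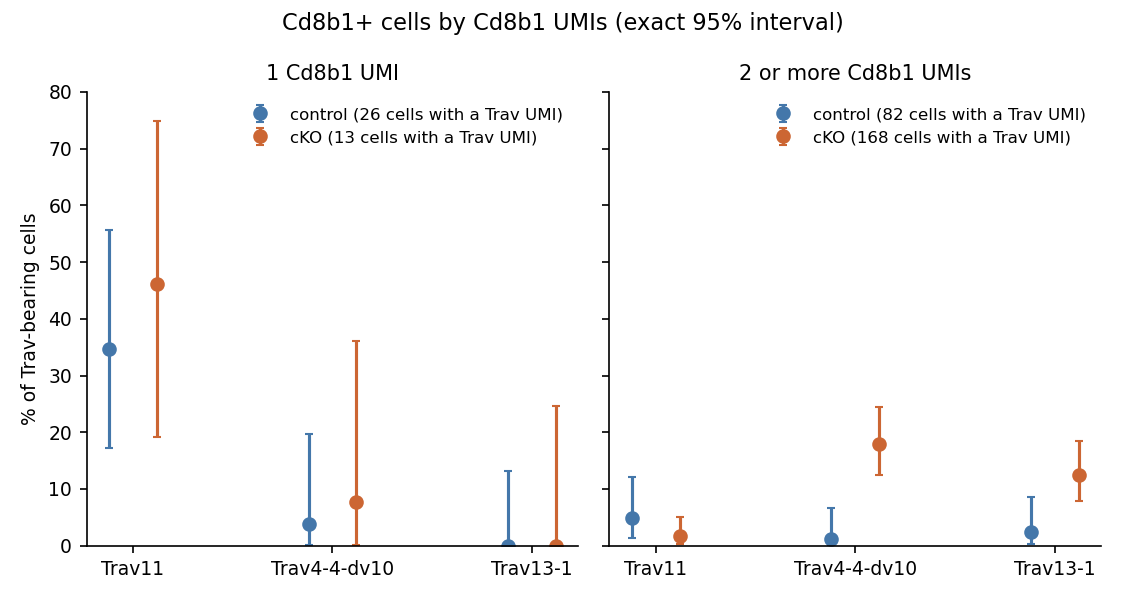
Share of Trav-bearing Cd8b1+ cells with Trav11, Trav4-4-dv10 or Trav13-1, divided by Cd8b1 UMIs per cell, control and cKO, with exact 95% intervals. Trav11 is frequent with 1 Cd8b1 UMI (34.6% and 46.2%) and rare with at least 2 (4.88% and 1.79%), where Trav4-4-dv10 reaches 17.9% in cKO.

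By families of segments, family 4, which includes Trav4-4-dv10, had the widest gap in Cd8b1+ cells. It was in 4 of 108 control (3.70%, 1.02 to 9.21) and 36 of 181 cKO Trav-bearing cells (19.9%, 14.3 to 26.5). Family 12 was in 11 control (10.2%, 5.20 to 17.5) and 3 cKO cells (1.66%, 0.343 to 4.77), and family 14 in 17 (15.7%, 9.45 to 24) and 9 (4.97%, 2.30 to 9.23). Intervals overlapped for family 13, in 9 (8.33%, 3.88 to 15.2) and 31 cells (17.1%, 11.9 to 23.4), and for family 8, in 2 (1.85%, 0.225 to 6.53) and 15 (8.29%, 4.71 to 13.3). Within family 14, Trav14-2 was in 8 control cells (7.41%, 3.25 to 14.1) and 1 cKO cell (0.552%, 0.0140 to 3.04), too few UMIs for the size rule. The effective number of segments was 22.8 in control and 17.4 in cKO Cd8b1+ cells when each cell counted once. Counted by UMIs it was 23.7 and 6.89, as Trav4-4-dv10 cells held many UMIs each.

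Of the other CD3+ class, 3 of the 15 segments with enough UMIs passed the size rule, 2 higher and 1 lower in cKO, while 28.9% of all 12887 genes tested there passed, 20.8% higher and 8.03% lower. Trav6-7-dv9 had 12 UMIs in 11 control and 30 UMIs in 28 cKO cells, 0.541 and 1.57 CPM, a ratio of 2.84 (1.44 to 6.23). Trav13-4-dv7 had 9 UMIs in 6 cells and 22 UMIs in 10 cells, 0.406 and 1.15 CPM, a ratio of 2.75 (1.26 to 7.01). Trav3-3 had 17 UMIs in 16 control cells and 3 UMIs in 3 cKO cells, 4.30-fold lower (1.41 to 26.0). After thinning, the intervals of Trav6-7-dv9 and Trav3-3 included 1. The median log2 ratio was -0.21 over the 15 segments and 0.20 over all genes tested. The effective number of segments was 9.97 in control and 8.24 in cKO. Trav1, the segment of mucosal-associated invariant T cells, was rare, with 3 cells in each library.

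The 2 higher segments can both join to the delta chain, and they differed in whether their cells held Trdc, the delta constant gene. Trav13-4-dv7 cells held a Trdc UMI in 3 of 6 control and 9 of 10 cKO cells (90%, 55.5 to 99.7). Trav6-7-dv9 cells did so in 1 of 11 control and 2 of 28 cKO cells (7.14%, 0.877 to 23.5), and Trav11 cells in 2 of 143 and 3 of 135. Trav15-1-dv6-1 cells held one in 5 of 10 cells of each library. Across the 10 dv segments, 14 of 24 control Trav-bearing cells with a Trdc UMI (58.3%, 36.6 to 77.9) and 20 of 27 such cKO cells (74.1%, 53.7 to 88.9) held a dv segment. Without a Trdc UMI the shares were 53 of 434 (12.2%, 9.28 to 15.7) and 50 of 367 (13.6%, 10.3 to 17.6). Trdc itself was 2.30-fold higher in cKO other CD3+ cells (interval 2.1 to 2.53), at 30.8 and 70.9 CPM. Without cells that held a Trdc UMI, the log2 ratio of Trav13-4-dv7 was -0.98 (-7.05 to 2.30), against 1.46 with them. Its interval also included 0 without cells with several segments (0.83), without other-lineage cells (1.30) and without the cell with the most Trav UMIs in each library (1.18).

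**Figure D5:**
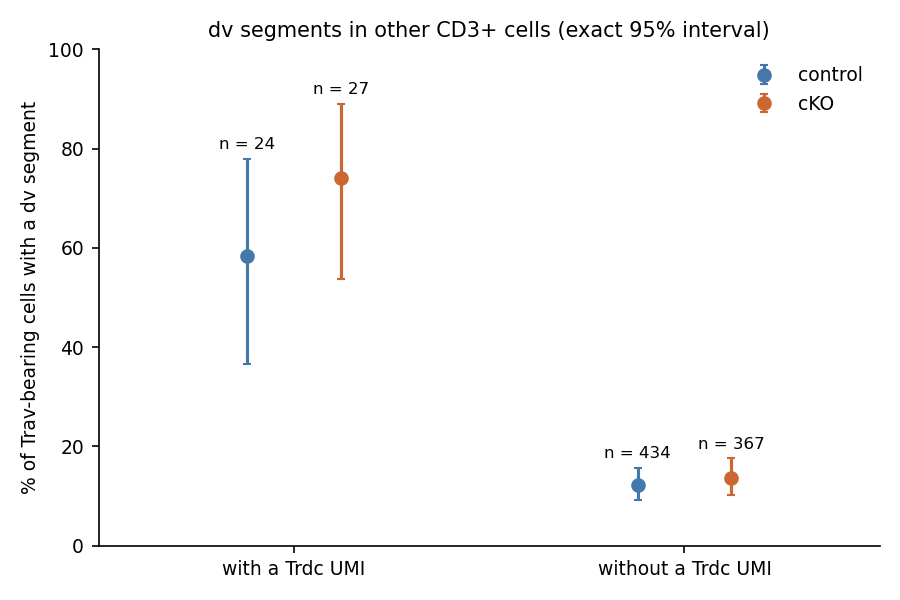
Share of Trav-bearing other CD3+ cells that held a dv segment, divided by whether the cell held a Trdc UMI, control and cKO, with exact 95% intervals and the number of cells. Cells with a Trdc UMI lie at 58.3% and 74.1%, and cells without one at 12.2% and 13.6%.

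Position in the locus was described by dividing the 80 detected segments in order into 27, 27 and 26. Among other CD3+ cells the 27 nearest the 5' end held 99 of 604 Trav UMIs in control (16.4%, 13.5 to 19.6) and 46 of 570 in cKO (8.07%, 5.97 to 10.6). The 26 nearest Trac held 21.4% (18.2 to 24.8) and 29.6% (25.9 to 33.6). Without Trav11, which lies in the middle group, the 5' shares were 22.6% and 11.3% and the 3' shares 29.5% and 41.4%. Cells per segment were also summed in place of UMIs, so a cell with several segments counted once for each of them. The 3' shares were then 21.4% of 482 and 24.8% of 423, with overlapping intervals, while the 5' shares were 16.6% and 8.98%. In Cd8b1+ cells the 3' group held 55.3% of UMIs in control and 61.9% in cKO, where it includes Trav4-4-dv10. By cells summed over segments the shares were 50.4% and 48.1%.

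In DP cells no segment had enough UMIs for the size rule, which 15.1% of all 3776 genes tested passed, 10.2% higher and 4.95% lower in cKO. The 7 control cells with a Trav UMI held 7 different segments, and 9 of their 19 UMIs were Trav19 in a single cell. The 18 cKO cells held 14 segments, led by Trav6-7-dv9 in 4 cells and Trav16n in 3. Trav11 was found in 0 of 7 control cells, an upper limit of 42.9%, and in 1 of 18 cKO cells (5.56%, 0.141 to 27.3). The control limit does not exclude the 31.2% seen in control other CD3+ cells.

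Of 21 receptor and recombination genes, the same rule gave 3 higher and 2 lower of 17 tested in Cd8b1+ cells, 1 and 1 of 16 in Cd4+ cells, 3 and 3 of 19 in other CD3+ cells, and 6 and 0 of 18 in DP cells. Of all genes tested in these classes 31.3%, 19.7%, 28.9% and 15.1% passed, so the list's counts in the first 3 are near or below the background. The counts include genes that chose the cells or were targeted: Cd3e and Cd3g are among the 3 higher in Cd8b1+ cells, Rag1 is among the 6 higher in DP cells, and Ets1 is among the lower in the 3 Rag1-negative classes. Cd247, which encodes the CD3 zeta chain, was higher in cKO in all 4 classes, by 1.64-fold (1.54 to 1.75) in other CD3+ cells and 2.01-fold (1.79 to 2.25) in Cd8b1+ cells. Trbc2, a beta constant gene, was 1.57-fold lower in other CD3+ cells (1.54 to 1.60). Dntt, which encodes the enzyme that adds bases at receptor junctions, had 80 UMIs in 25 control and 6 UMIs in 6 cKO other CD3+ cells, 10.7-fold lower (5.04 to 32.2). By cells this was 0.450% against 0.228%, so a few control cells held most of the Dntt UMIs. Dntt was 1.89-fold higher in cKO DP cells (1.52 to 2.37), and its ratio in Cd8b1+ cells was 0.980 (0.619 to 1.56). The alpha constant gene Trac, the constant partner of all Trav segments, had a level of 838 CPM (control) and 804 CPM (cKO) in other CD3+ cells. In Cd8b1+ cells, where summed Trav was 2.21-fold higher, Trac was 1.49-fold higher (1.43 to 1.56), at 679 and 1013 CPM.

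Cells with more than 1 segment were a minority in each class. They made up 7.41% of control and 12.2% of cKO Cd8b1+ cells with a Trav UMI, 9.20% and 9.71% of Cd4+ cells, and 5.24% and 6.60% of other CD3+ cells. Segments of the same family made up 2 of 42 such pairs in control and 4 of 80 in cKO. T cells can rearrange both alpha alleles and doublets were not removed; which of these gave the pairs was not tested.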

How the data were processed

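The deposited matrices hold whole-number UMI counts per gene and barcode, made by the authors from 3' libraries. The submitters' processing notes list Cell Ranger 2.1.1 and mm10. The matrix headers name software version 3.0.0, which was not resolved, and the sources used here do not state alignment settings or annotation. All barcodes held at least 500 UMIs, and the libraries held 35210431 control and 39979742 cKO UMIs.

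Barcodes with fewer than 500 genes or over 10% mitochondrial UMIs were left out. The mitochondrial filter touched 6.76% of control and 28.6% of cKO barcodes. No doublet caller was run. CPM are summed UMIs of a class per 1000000 UMIs of that class. Ratios have exact conditional binomial intervals with 0.5 UMIs added to both sums, shares Clopper-Pearson intervals and levels Poisson intervals. A count of 0 allows up to 3 counts. UMIs of 1 cell are not independent, so shares of cells come first. Evenness is the inverse Simpson index. Class totals of other CD3+ cells were simulated from 1 profile for 32285 genes. All 156 genes with a 3-fold change and at least 100 expected UMIs met the size rule. So did 33 of 44 changed genes with fewer, and 87 of 12722 unchanged genes tested. The simulated totals held no single cells and no differences between mice. These shares therefore do not cover segments whose UMIs lie mostly in 1 cell.

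Members and lists were chosen with earlier results of these data known. Named were Trav11, Trav11d, Trav4-4-dv10 and Trav1, the 5 leading segments of each class, segments past the size rule, and up to 6 receptor genes per class. Features were matched to GENCODE vM21 on GRCm38 by gene identifier (99.8%). Computing used pandas 2.3.3, scipy 1.17.1 and numpy 2.4.6 in Python 3.11.15, and plots matplotlib 3.10.9. Alternatives changed the cell filters, the CD3 and Cd8b1 definitions, the depth, the weighting and the size rule.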

Additional observations from a re-analysis of the deposited data

Results flagged for a closer look

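Trav22, annotated as a V pseudogene, was seen outside the T cell classes that the comparisons use. Among control cells with neither a CD3 nor a Rag1 UMI, 6 of 251 held a Trav22 UMI, with 7 UMIs in all, which is above the limit of 3 counts that a count of 0 allows. These were 6 of the 9 such cells with any Trav UMI, and all 6 held a UMI of Ncr1, which encodes the NK cell receptor NKp46. In the cKO library 2 of 2303 such cells held Trav22, and both held Ncr1. In other CD3+ cells Trav22 was found in 8 control cells, 4 of them with Ncr1, and in 3 cKO cells, 0 of them with Ncr1. What links the Trav22 and Ncr1 counts was not tested.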

How the results depend on the processing

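Most of the alternatives left the values within their counting intervals or within 1.5 times. No paired analysis was possible because each genotype has 1 library. Trav4-4-dv10 had the higher share of Trav-bearing Cd8b1+ cells in cKO in 15 of 15 settings, among them 14.4% in cKO and 2.33% in control without cells with other-lineage markers. Trav11 in other CD3+ cells was higher in cKO in 13 of 15, the exceptions being cells of at least 3000 UMIs (33.2% in cKO and 35.0% in control) and thinned cells.

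Thinning every cell to 1500 UMIs before the classes were made removed most Trav UMIs. It gave Trav4-4-dv10 in cKO Cd8b1+ cells 26.8% of cells and 29.2% of UMIs, and Trav11 in cKO other CD3+ cells 23.8% of cells. The ratio of shares with any Trav UMI, cKO over control, was 2.08 in Cd8b1+, 4.18 in Cd4+ and 1.17 in other CD3+ cells, against 2.64, 2.32 and 1.81. Effective numbers were 14.0 and 8.76 in control and cKO Cd8b1+ cells, 2.27 and 11.3 in Cd4+ cells, 14.2 in cKO other CD3+ cells, and 4 and 5.40 in DP cells, and 0 segments passed the size rule in any class, with 0 tested in Cd8b1+ and Cd4+ cells. Trav13n-3 in Cd4+ cells had a log2 ratio of 0.68.

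In cells of at least 3000 UMIs the ratio of shares was 1.80 in Cd8b1+ and 1.08 in other CD3+ cells, and the effective number was 3 in control DP cells. With at least 2 Cd8b1 UMIs the ratio was 2.07 in Cd8b1+ cells. With at most 5% mitochondrial UMIs the effective number was 4 in control DP cells.

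Pooled by family, effective numbers were 10.9 and 9.77 in Cd8b1+, 9.30 and 14.0 in Cd4+ and 5.28 in cKO DP cells. Of the 23 families, 6 in Cd8b1+ and 1 in other CD3+ cells passed the size rule. The same rule called 31.3% and 28.9% of all genes tested in these classes. How many families had enough UMIs, and in which direction they passed, is not given here, so these counts are not read as a result. Weighted by UMIs the effective number was 6.89 in cKO Cd8b1+ and 3.57 in control DP cells. The count of segments past the size rule in Cd4+ cells was 1 without the 5% of cells with the most UMIs and without cells with other-lineage markers. The count was also 1 without the cell with the most Trav UMIs in each library (where Trav13n-3 had a log2 ratio of 1.40). It was 0 with cells in place of UMIs. Asking for 50 UMIs left 1 in Cd8b1+, 0 in Cd4+ and 0 in other CD3+ cells, and leaving out cells with several segments left 1 in other CD3+ cells. Without cells with a Trdc UMI, an alternative chosen after seeing the data like that on 2 Cd8b1 UMIs and on cells in place of UMIs, Trav13-4-dv7 had a log2 ratio of -0.98. By cells summed over segments, the segments nearest Trac made up 31.6% in control Cd4+, 48.1% in cKO Cd8b1+ and 24.8% in cKO other CD3+ cells. Beyond the smaller number of cells or UMIs that a setting leaves, the cause was not tested.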
